A study of Notamacropus eugenii with 7 samples.

Results

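MiR-10a, miR-10b and miR-196b are the miRNAs with values in the deposited table that are located inside HOX gene clusters. They were chosen by that location, although with earlier results of these data known. They are 3 of the 346 miRNAs named in the table, of which 102 were listed in at least 1 library. The table gives each miRNA as a percent of the miRNA reads of a small RNA library from tammar wallabies (Macropus eugenii), a marsupial with a short gestation and a long lactation. There were 5 libraries of skim milk, from phase 2A (days 35 and 75 of lactation), phase 2B (days 120 and 175) and phase 3 (day 250), and 2 libraries of blood serum of lactating mothers in phase 2B (days 120 and 175). No treatment other than anaesthesia and the oxytocin used for milk letdown is described, and no genotype or age is given. Each milk library came from the pooled milk of several females, and the serum of each day came from a pair of females, so the spread between animals cannot be seen. The days are those of the sample labels, and the study dates those of day 120, and in places that of day 75, slightly earlier. A further profile of day 175 that the series record mentions was not analysed here.

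HOX genes encode transcription factors that give the body axis its regional identity, and they lie side by side in 4 clusters, A to D. In vertebrates miR-10a lies in the B cluster and miR-10b in the D cluster, each close to the HOX4 gene of its cluster, and miR-196b lies in the A cluster between HOXA9 and HOXA10. A miRNA acts by pairing its seed, a short stretch near its 5′ end, with sites in target mRNAs, and HOX mRNAs are among the known targets, such as HOXD10 for miR-10b and HOXB8 for miR-196. MiR-10a and miR-10b share their seed and differ by a single base near the middle, whereas miR-196b has an unrelated seed. The RefSeq gene table of the tammar assembly mMacEug1.pri_v2 lists 37 HOX genes, 11 in cluster A, 10 in B, 7 in C and 9 in D. It lists 0 miRNA genes, so the place of the 3 miRNAs in the wallaby was not checked.

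MiR-10b was the most abundant miRNA of both serum libraries and ranked between 7 and 11 in milk. It took 69.2% of the miRNA reads of serum at day 120 and 55.4% at day 175. Its milk shares were 2.91%, 1.52%, 3.42%, 3.76% and 1.15% on days 35, 75, 120, 175 and 250. The lowest serum value thus lay far above the highest milk value. A share can be high through more of the miRNA or through less of the others, and these cannot be told apart. In rank among the miRNAs above 0 it was 8 of 42, 11 of 74, 7 of 57, 9 of 81 and 11 of 70 over the milk days, while in serum it was 1 of 70 and 1 of 71. Next to it in milk stood miR-92 (3.22%) above it at day 35 and miR-30a (3.36%) below it at day 120.

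MiR-10a followed the same division at a lower level. Its share was 7.20% in serum at day 120 and 10.6% at day 175, where it ranked 2 and 3. Over the milk days it was 0.292%, 0.177%, 0.483%, 0.714% and 0.228%, with ranks between 17 and 21. Again no milk library reached either serum library. At day 75 its neighbours in rank were let-7g (0.179%) and miR-181b (0.177%), from which it differed by no more than a few units of the last deposited decimal.

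Together miR-10a and miR-10b made up 76.4% of serum at day 120 and 66.0% at day 175, as percent of miRNA reads. In milk their sum lay between 1.37% at day 250 and 4.47% at day 175. The remaining reads of the serum libraries were 23.6% at day 120 and 34.0% at day 175. These include a part that no listed miRNA accounts for, 0.866% and 0.65%, whose source was not tested. The columns of the table sum to between 95.8% (milk at day 175) and 99.6% and not to 100%.

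**Figure D1:**
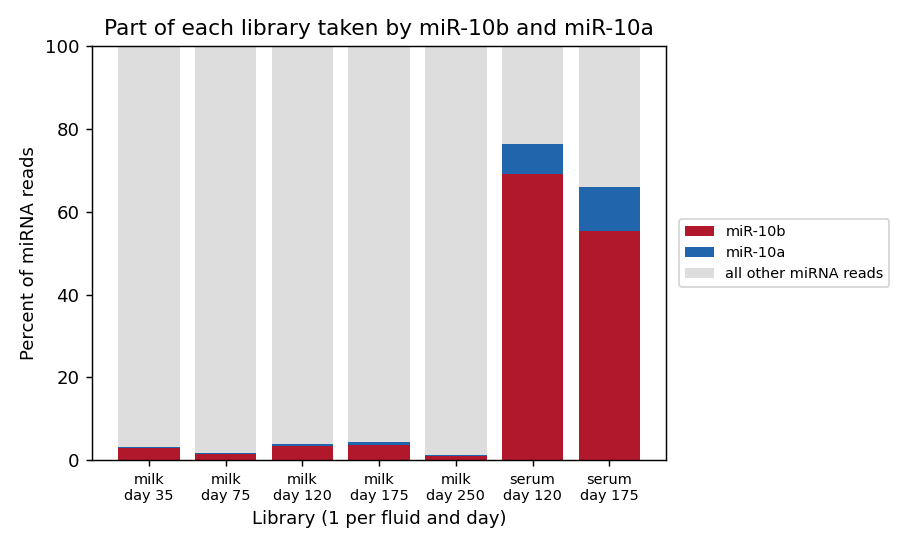
Stacked bars give the percent of miRNA reads taken by miR-10b, by miR-10a and by all other miRNA reads in each of the 7 libraries. The miR-10 pair filled 76.4% and 66.0% of the serum bars and at most 4.47% of a milk bar.

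MiR-196b was at the limit of what the table can show. Serum held 0.005% of it at day 120 and 0.001% at day 175. It was listed at 0, that is below 0.0005%, in milk at day 250, and was absent from the other 4 milk libraries. As the milk values are 0 or absent, no fold between the fluids is given. The other HOX-cluster miRNAs with a row in the table, miR-196a of the B and C clusters and miR-615 of the C cluster, had no entry in any of the 7 libraries.

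Both fluids were sequenced on days 120 and 175, so their shares can be set side by side within these days. Whether miRNAs of the mother's circulation reach milk was not tested. The share of miR-10b in serum was 20.2-fold that in milk at day 120 and 14.7-fold at day 175. For miR-10a the ratios were 14.9 and 14.8. These are ratios of shares and depend on the scaling. On the centred log ratio, which here sets each miRNA against the mean log2 level of the 52 miRNAs that reached 0.001% in all 4 libraries, the log2 difference was 4.76 and 5.36 for miR-10b and 4.32 and 5.36 for miR-10a at days 120 and 175, against 4.34 and 3.88 and 3.90 and 3.89 from the shares, so that day 175 then had the wider difference for both. Among these 52 miRNAs, on the deposited shares, miR-10b had the serum to milk ratio of rank 2 from the top at day 120 and of rank 3 at day 175, and miR-10a ranked 5 and 2. Rounding of the deposited values leaves the miR-10b ratio of day 175 between 14.7 and 14.8.

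For a test, both days were taken as the libraries of each fluid, and limma was fitted to 75 miRNAs on a log2 scale after adding 0.001 to each percent. Of these, 18.7% had an adjusted p under 0.05 in either direction and 4.0% were so called with the higher level in serum. On the centred log ratio 27 miRNAs were called, 15 with the higher level in serum, against 14 and 3 from the shares. On that scale limma gave miR-10a, miR-10b and miR-196b the same standard error of 0.99. The fits thus differ in the error estimate as well as in the scaling. MiR-10b was higher in serum by 4.11 on the log2 scale of the shares (standard error 0.74, limma adjusted p = 0.0107), and miR-10a by 3.89 (standard error 0.77, limma adjusted p = 0.0155). MiR-196b entered this fit through its serum values alone and has no level in milk of these days, so nothing is read from its fit. The calls of miR-10a and miR-10b were lost with the day as a block (limma adjusted p = 0.0792 for both) and with any of the 4 libraries left out, when 0 miRNAs were called.

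Across all 7 libraries, both serum values lay above all 5 milk values for miR-10a and miR-10b, as they did for 12.7% of the 102 listed miRNAs. MiR-196b is not read here, as its milk values are 0 or absent. The mean log2 share of miR-10b was 1.21 ± 0.76 (SD, n = 5) in milk and 5.95 ± 0.23 (SD, n = 2) in serum, a difference of 4.75 (exact permutation test over 21 splits, two-sided p = 0.0476). For miR-10a the means were -1.59 ± 0.82 (SD, n = 5) and 3.12 ± 0.39 (SD, n = 2), a difference of 4.71 with the same exact permutation p. This p is the smallest that the 21 splits allow. With days 120 and 175 only, the differences were 4.11 and 3.89 (exact permutation p = 0.333 for both, the smallest that 6 splits allow). With any single library left out, too few splits remain for an exact permutation p under 0.05, so these runs decide nothing on the threshold. On the centred log ratio the differences were 5.98 and 5.94. The libraries of a fluid differ in day and are not repeats of 1 condition. The labels give the milk kit for the RNA of all samples and the study's methods give another kit for serum, so fluid and extraction cannot be told apart.

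Markers of cell types were read in the same libraries. The 7 epithelial miRNAs of a fixed list (the miR-200 family with miR-141 and miR-429, and miR-205) summed to between 0.742% and 6.50% in milk and to 0.009% and 0.027% in serum. The 3 erythroid miRNAs (miR-451, miR-144 and miR-486) summed to 0.042% and 0.055% in serum and to between 0% and 0.047% in milk, the highest milk value being that of day 175. The 4 leukocyte and platelet miRNAs (miR-223, miR-142, miR-150 and miR-155) summed to 0.041% and 0.120% of serum reads and to no more than 0.008% in milk. Endothelial miR-126 was at 0.034% and 0.050% of serum reads and did not exceed 0.007% in milk. Liver miR-122 was at 0.096% and 0.009% of serum reads and between 0.001% and 0.040% in milk. The rows named miR-200a, miR-205, miR-486 and miR-155 had no value above 0 in any library, and the arms of miR-200a that the study names separately were not analysed here. The share of erythroid miR-451 was 0.041% in serum against 0.002% in milk at day 120, a ratio that rounding leaves between 16.2 and 27.7, and 0.054% against 0.045% at day 175 (between 1.18 and 1.22), beside 20.2-fold and 14.7-fold for miR-10b. Rounding leaves these ratios between 13.4 and 23.0 and between 6.60 and 7.77 for miR-126, and between 3.47 and 4.07 and between 47.7 and 145 for miR-223, whose milk share at day 175 was 0.001%. The part of blood cells in the milk values of the miR-10 pair was not tested.

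**Figure D2:**
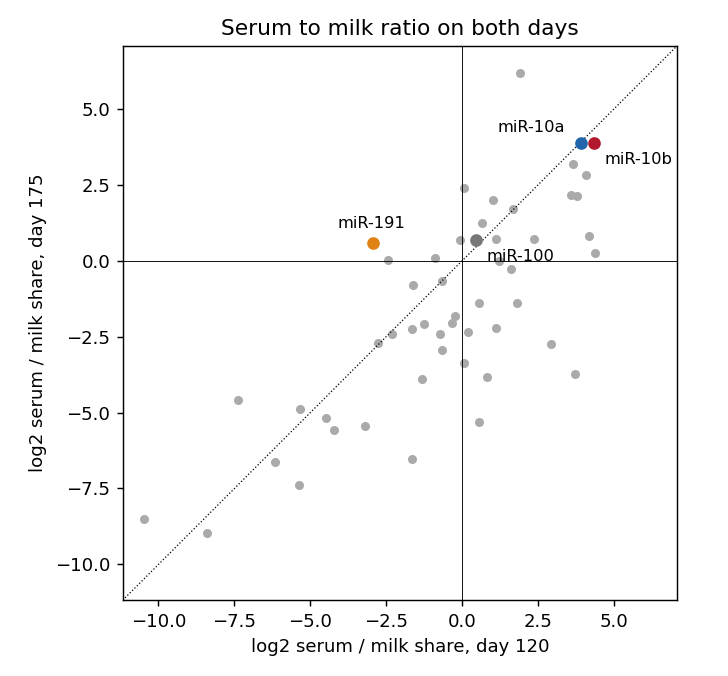
Each point is 1 of 52 miRNAs with at least 0.001% in the 4 libraries of days 120 and 175, placed by its log2 serum to milk ratio of shares at day 120 (x axis) and day 175 (y axis), with the dotted line at equal ratios. MiR-10a lies on the line at 3.90 and 3.89, miR-10b at 4.34 and 3.88, and miR-191 far off it at -2.93 and 0.59.

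As shares, the serum to milk ratio of miR-10a was nearly the same on both days. Its log2 ratio moved by -0.01 from day 120 to day 175, the second smallest move among the 52 miRNAs, whose median absolute move was 1.64. That of miR-10b moved by -0.46, at rank 10 from the smallest. MiR-191, a milk miRNA that was also abundant in serum, moved by 3.51. In milk miR-10a was 1.48-fold higher at day 175 than at day 120, and in serum 1.47-fold. The near equality holds for the deposited shares alone among the scalings run. On the centred log ratio against the 40 miRNAs with at least 0.001% in all 7 libraries, the serum change of miR-10a exceeded the milk change by 0.96, and with miR-191 reads excluded by 0.81, whereas with miR-10b reads excluded the difference was -0.55. For miR-10b the move of -0.46 turned to 0.52 on the centred log ratio and to 0.37 with miR-191 reads excluded. The 1 library per fluid and day allows no test of these moves.

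As miR-10b took 69.2% of one serum library and 55.4% of the other, it left unequal parts to all other miRNAs, and the shares of days 120 and 175 were also taken of the reads other than miR-10b. On this scale miR-10a took 23.4% of the remaining serum reads at day 120 and 23.7% at day 175. Its log2 change between the days was 0.02, the smallest of 51 miRNAs, against a median absolute change of 0.73. With miR-10b in the denominator the same change was 0.55, at rank 20 of 52. It was 0.64 on the centred log ratio and 0.69 with miR-191 reads excluded, so the near constancy holds on this 1 scale. MiR-10a was the most abundant miRNA of this remainder at day 120 and ranked 2 at day 175, behind miR-191. In milk miR-10b took too little to matter, and miR-10a made up between 0.180% and 0.742% of the remainder. The distance of miR-10a between the fluids is wider on this scale by construction, as miR-10b took most of the serum reads, and nothing is read from it. The remainder also holds the part that no listed miRNA accounts for.

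**Figure D3:**
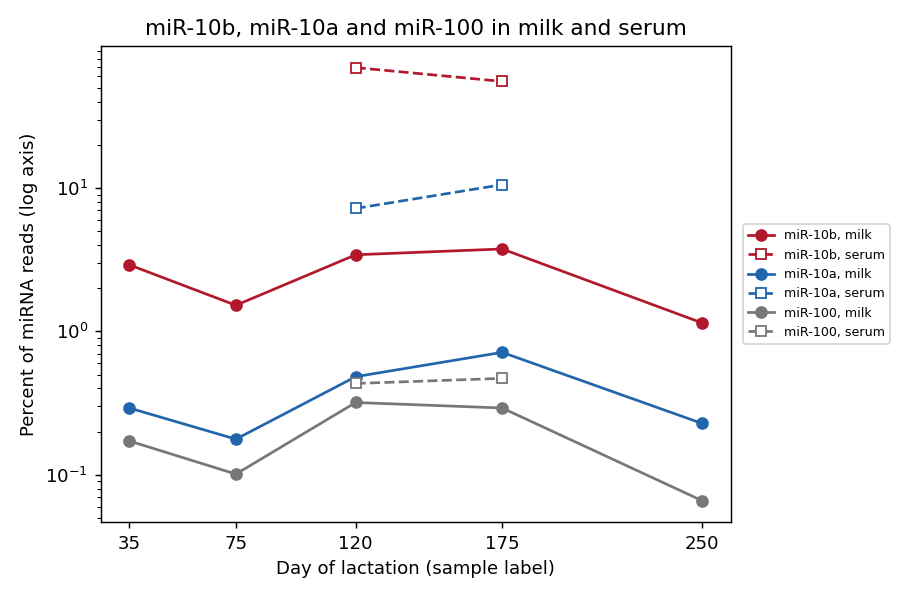
Shares of miR-10b, miR-10a and their relative miR-100 as percent of miRNA reads on a log axis against the day of lactation, with filled circles for milk, open squares for serum and 1 library per point. In milk miR-10b and miR-10a were lowest at days 75 and 250 and highest at day 175 (at day 120 when miR-191 reads were excluded from the total or on the centred log ratio), and both serum levels of the miR-10 pair lay above every milk level.

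Over the course of lactation miR-10a and miR-10b went the same way in milk at each of the 4 steps. Their shares were lower at day 75 than at day 35, by 1.65-fold for miR-10a and 1.91-fold for miR-10b. From day 75 to day 120, when phase 2A gives way to phase 2B, they were 2.73-fold and 2.25-fold higher. From day 120 to day 175 miR-10a was 1.48-fold and miR-10b 1.10-fold higher. At day 250, in phase 3, they were 3.13-fold and 3.28-fold lower than at day 175. When the reads of miR-191 were excluded from the total, or on the centred log ratio, both miRNAs were lower at day 175 than at day 120, and their highest value was then that of day 120. The other 3 steps kept their direction under both of these scalings, but the last one, to day 250, was only 1.49-fold for miR-10a and 1.56-fold for miR-10b after centring. The same order of down, up, up and down was found for 9 of the 64 miRNAs that reached 0.005% in any milk library (14.1%), the pair included, the others being let-7a, miR-215, miR-429, miR-25, miR-182, miR-203 and miR-15a. Within milk the highest share was 4.03-fold the lowest for miR-10a and 3.28-fold for miR-10b, and without replicates these differences between days have no error.

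The balance between miR-10a and miR-10b differed between the days of lactation. For each miR-10b read of milk there were 0.100, 0.116, 0.141, 0.190 and 0.199 miR-10a reads on days 35, 75, 120, 175 and 250, more on every later day. In serum the ratio was 0.104 at day 120 and 0.190 at day 175, upward as well. Rounding leaves the milk ratio of day 250 between 0.198 and 0.199 and that of day 175 at 0.190, but with 1 library per day the steps have no error that covers animals or libraries. The ratio does not depend on the denominator of the shares, so the scaling that turned the step of both miRNAs from day 120 to day 175 leaves it as it is.

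At day 175 the ratios of milk and serum differed by 0.003 on log2, and at day 120 by 0.44. Over all libraries the mean log2 ratio was -2.79 ± 0.43 (SD, n = 5) in milk and -2.83 ± 0.62 (SD, n = 2) in serum, a difference of -0.03 (exact permutation test over 21 splits, two-sided p = 0.905). Both serum ratios lay inside the range of the milk ratios. The difference between fluids ran from -0.47 to 0.40 with each library left out in turn. Thus neither a difference of the balance between fluids nor its absence is shown. The deposited shares of both miRNAs differed over 14-fold between the fluids within day 120 and within day 175.

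**Figure D4:**
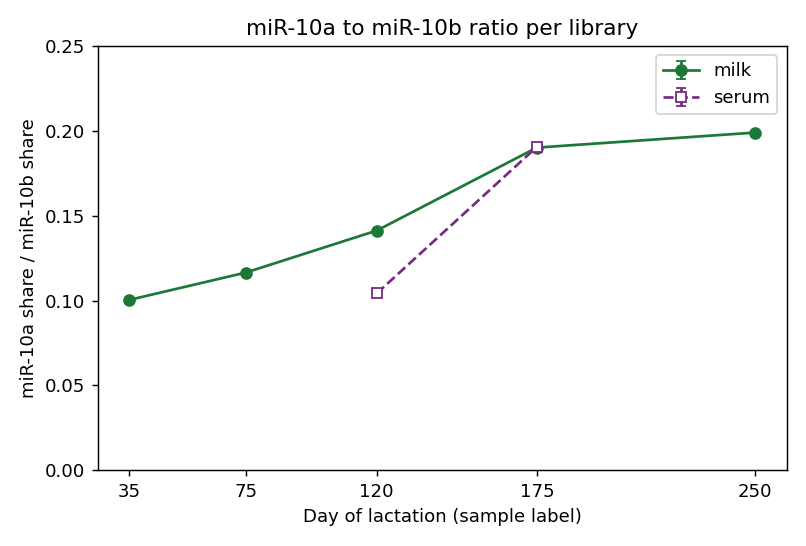
The miR-10a share divided by the miR-10b share in each library against the day of lactation, for milk (filled circles) and serum (open squares), with bars for the rounding of the deposited values that are smaller than the symbols. The milk ratio was higher at each later day, from 0.100 to 0.199, and the serum ratio of day 175 coincided with that of milk at 0.190.

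The range of this ratio was set beside those of all pairs of the 40 miRNAs with at least 0.001% in all 7 libraries. Over the 7 libraries the ratio of miR-10a to miR-10b spanned 1.98-fold, from its lowest to its highest value, whereas the levels of each spanned both fluids. Of the 780 pairs, 2 had a span no larger, namely this pair and let-7f with let-7a, at a log2 span of 0.94. The median span of all pairs was 6.28 on log2. A log2 difference between milk and serum of at most 0.44 on both days was found for 0.769% of the pairs, the miR-10 pair included. This bound is the larger of the differences of the miR-10 pair, that of day 120. At day 175 alone no pair but the miR-10 pair had a difference as small as its own (0.128% of the pairs). Among miRNAs of at least 0.01% in all libraries, 1.32% of the pairs stayed within 0.44 on both days. By contrast, a ratio that moved one way at all milk steps was found for 7.95% of the pairs, and one that also moved that way in serum for 4.36%. The pairs share libraries and miRNAs, so these numbers describe the table and are no test. MiR-10a and miR-10b, as well as let-7f and let-7a, are close in sequence, and the counting of miRanalyzer against known miRNAs could split or misassign the reads of such relatives. The part of that in the narrow range of the ratio was not tested.

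**Figure D5:**
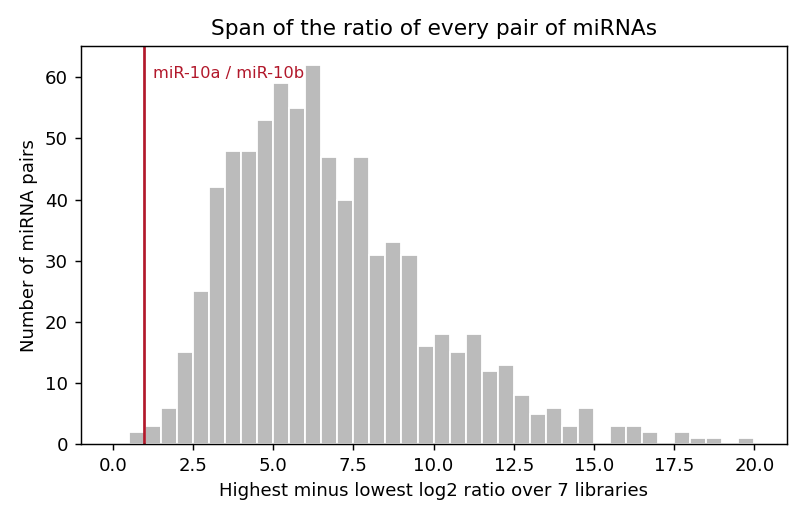
Histogram of the span of the log2 ratio over the 7 libraries (x axis, highest minus lowest) for the 780 pairs of 40 miRNAs, with the number of pairs on the y axis. The line marks miR-10a with miR-10b at 0.99, near the lower end, against a median of 6.28.

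Patterns like those of the pair were looked for among the same 40 miRNAs by Pearson correlation of log2 of percent plus 0.001, as a description without a test. Over the 7 libraries miR-10a was the most like miR-10b (r = 0.98), followed by miR-215 (0.84), miR-100 (0.84), miR-25 (0.80) and miR-92 (0.66). The same 4 followed miR-10b in likeness to miR-10a, with miR-215 at 0.91, miR-100 at 0.83, miR-25 at 0.72 and miR-92 at 0.60. The points are libraries of both fluids, and all miRNAs of a library share its denominator. The least like was let-7d for both. Within the 5 milk libraries miR-10b was most like miR-100 (r = 0.97), then miR-182 (0.92), miR-203 (0.91), miR-25 (0.88) and the epithelial miR-429 (0.86), and miR-10a came at rank 6 of 39 (0.85). MiR-10a was most like miR-429 (0.95) and miR-203 (0.94) in milk, then miR-100 (0.87), miR-10b (0.85) and miR-215 (0.83). MiR-429 was thus near the pair in milk but took only 0.007% and 0.014% in serum.

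MiR-100 belongs to the same ancient family as miR-10, with a related seed, but lies outside the HOX clusters beside a let-7 gene. Over the milk days its shares were 0.172%, 0.101%, 0.319%, 0.292% and 0.066%, and its serum shares were 0.433% and 0.470%. Both serum values lay above all milk values. As shares, the serum to milk ratio of miR-100 was 1.36 at day 120 and 1.61 at day 175, log2 differences of 0.44 and 0.69 that became 0.86 and 2.16 on the centred log ratio against 52 miRNAs. In limma on the shares it was higher in serum by 0.56 on log2, with a standard error of 0.73 (adjusted p = 0.669). In milk miR-10b was between 10.7-fold and 17.4-fold as abundant as miR-100, and in serum 160-fold at day 120 and 118-fold at day 175. The remaining family rows, miR-99, miR-99a and miR-99b, had no entry in any library.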

How the data were processed

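The authors sequenced small RNA of skim milk and serum, removed adaptors and low quality reads, counted known miRNAs of miRBase with miRanalyzer, and deposited the reads of each miRNA as a percent of all annotated miRNA reads of the library, rounded to 3 decimals, in 1 column per library. An empty entry is an absent miRNA and 0 a level below 0.0005%. The table holds percentages and no read numbers. The library totals printed in the study were not used here, so no counting intervals are given, and shares are rounded to 0.0005 percentage points either way.

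From these percentages the ranks, ratios and differences were computed with absent entries as 0, in Python 3.11.15 with numpy 2.4.6, pandas 2.3.3 and matplotlib 3.10.9. As the values are percent and not counts, serum was compared with milk of days 120 and 175 in R 4.3.3 with limma 3.58.1, on log2 of percent plus 0.001, over miRNAs that reached 0.001% in 2 or more of these 4 libraries and with Benjamini-Hochberg adjustment over all 75. Tested on simulated data for this comparison, in which 20 of 75 miRNAs were given a 16-fold change and noise of 0.7 (SD, log2), limma recovered 99.7% with 0.56 false calls per run over 50 runs. With 2 libraries per fluid the standard error equals the SD after limma has drawn it toward a common value of all miRNAs. In the fit of the 75 measured miRNAs none lay below 0.73, but without the filter that of miR-10b was 0.31. The simulated noise was the same for every miRNA, so the recovery may be optimistic for these data. The study states the same females gave milk and serum, so a fit with the day as block was added. Its methods give more females for a milk pool than for the serum of that day, so the match is partial at most. The day 120 to 175 changes in milk and serum correlated at -0.12 over 75 miRNAs. Values of single miRNAs in 5 milk and 2 serum libraries were compared by exact permutation, two-sided by absolute difference. The alternatives were other pseudocounts, filters and denominators, the centred log ratio (against 52 miRNAs in limma and 40 across all 7 libraries), the block, and the removal of single libraries. Untested values were called moved beyond a change of 1.5-fold.

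Named are the 3 members, the other HOX-cluster and miR-10 family rows, the 5 miRNAs most like each of the miR-10 pair, neighbours in rank, and markers beside a result. MiR-191, let-7f with let-7a, and the miRNAs sharing the milk pattern were named after their values were seen. The members and lists were chosen with earlier results of these data known.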

Additional observations from a re-analysis of the deposited data

Results flagged for a closer look

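From day 120 to day 175 the log2 share of miR-10b changed by 0.13 in milk and by -0.32 in serum, opposite directions in the 2 fluids. The serum change minus the milk change was thus -0.455. This difference turned to 0.516 on the centred log ratio and to 0.371 when miR-191 reads were excluded from the total. It was not tested, as there was 1 library per fluid and day. On the centred log ratio both changes were downward, -0.75 in milk and -0.23 in serum, as they were when miR-191 reads were excluded from the total, -0.55 and -0.18. No milk value of miR-10a, of miR-10b or of their ratio lay apart from the other 4 by Dixon's test. The milk libraries are of different days and are not repeats, so nothing on the quality of a library is read from it.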

How the results depend on the processing

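MiR-10b and miR-10a were higher in serum than in milk under every alternative run. In limma the log2 difference of miR-10b ran from 3.95 to 4.27 and that of miR-10a from 3.61 to 4.17 with each library left out (limma adjusted p from 0.0724 to 0.137, and from 0.0724 to 0.203), none past the threshold. With the day as a replicate block the differences stayed 4.11 and 3.89 (limma adjusted p = 0.0792 for both). Under the other 7 alternatives of miR-10b and 8 of miR-10a the call remained, but the size differed. It was 3.78 and 3.56 with miR-191 reads excluded, 4.75 and 4.71 with all 5 milk libraries, and 5.06 and 4.84 on the centred log ratio. With miR-10b reads excluded it was, by construction, 5.27 for miR-10a. The fitted log2 difference of miR-196b is no measure of the fluids, as it enters through serum alone and its milk level is the pseudocount. It was 1.79 (limma adjusted p = 0.228), with 0.36 and 2.52 under the other pseudocounts and 2.74 on the centred log ratio. That scale was the one setting past the threshold (limma adjusted p = 0.0206, against up to 0.558 elsewhere). On it limma gave miR-196b the same standard error as the miR-10 pair, 0.99, so the error estimate differed as well. MiR-196b had no fit at a filter of 0.005% or without either serum library.

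The number of miRNAs called, 14 (3 higher in serum, 11 in milk), was 27 on the centred log ratio (15 and 12). This scale moved the median log2 difference of all miRNAs by 0.95, and the error estimate of limma differed on it as well. The number called was 15 (6 and 9) with miR-10b left out of the denominator, where the median moved by 0.84. By limma it was 0 with the replicate block, with 20 at an unadjusted p under 0.05, and 0 with any of the 4 libraries left out, with 13 to 23 at an unadjusted p under 0.05. A fit on 3 libraries assumes that the lone library of a fluid varies like the others.

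In the exact permutation tests the difference of miR-10b was 4.11 and that of miR-10a 3.89 with days 120 and 175 only (exact p = 0.333, the smallest that 6 splits allow). They ran from 4.49 to 4.92 and from 4.44 to 4.99 with each library left out (exact p from 0.0667 to 0.167, likewise the smallest possible). Taking shares of the reads other than miR-10b, chosen after the data were examined, gave 6.11 for miR-10a, wider by construction. On the centred log ratio the differences were 5.98 for miR-10b and 5.94 for miR-10a. The difference of the log2 ratio of miR-10a to miR-10b ran from -0.47 to 0.40, and was above 0 without milk of day 175 (0.07), milk of day 250 (0.08) or serum of day 120 (0.40).

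The change in milk from day 120 to day 175 turned from 0.56 to -0.32 for miR-10a and from 0.13 to -0.75 for miR-10b on the centred log ratio, and to -0.12 and -0.55 when miR-191 reads were excluded from the total. The pairs with a log2 difference between fluids of at most 0.44 on both days were 0.769% of all. Among miRNAs of at least 0.01% in all libraries they were 1.32%, where fewer pairs were compared.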
